A study of Mus musculus with 6 samples.

Results

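Syndecans and glypicans are the 2 main families of heparan sulfate proteoglycans at the cell surface, with 4 and 6 genes in the mouse. All 10, of 18193 genes with a probe set, were described here from every probe set that the array annotation ties to exactly 1 gene of that name, which gave 24 probe sets of the 45101 on the array, 13 for syndecans and 11 for glypicans. One further probe set is annotated to both Gpc2 and Gal3st4 and was left out.

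The samples were myoblasts, the dividing precursors of skeletal muscle fibres, isolated from the hindlimbs of C57BL/6JRj males aged 9 to 15 weeks. Of 6 samples, 3 were grown on fibronectin and 3 on collagen I, for 72 hours, and both groups shared a medium (Ham's F-10) that held 20% serum and 2.5 ng/ml basic fibroblast growth factor. The comparison asks how the coating changes gene expression. The labels give neither separate animals or cultures for the 3 samples of a coating nor an uncoated control, so the spread behind the p-values is that among these samples and could be technical alone.

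Syndecans cross the membrane and end in a short cytoplasmic tail that binds PDZ proteins and cytoskeletal adaptors, whereas glypicans are held in the outer leaflet by a glycosylphosphatidylinositol anchor. Both carry heparan sulfate chains that bind fibronectin, growth factors such as Fgf2 and Hgf, and morphogens of the Wnt, Hedgehog and BMP families. Sdc4 acts beside integrins in cell spreading on fibronectin. Sdc3 and Sdc4 are known as surface markers of satellite cells, the stem cells of skeletal muscle, and Gpc1 is known to sequester Fgf2 in myoblasts.

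The promoters of Gpc4, Sdc3 and Sdc1 are shown because these are the members that passed the test and have an entry in the RefSeq promoter table (build GRCm38.p6), which holds 7 of the 10 members. Each run covers the 250 bases before the start of transcription, 5′ to 3′ on the gene's strand. Capitals mark GC boxes (GGGCGG), the E-box of myogenic factors (CANNTG) and the MCAT element of Tead factors (GGAATG), searched on both strands. The windows are chrX:52164924-52165173 on the minus strand for Gpc4, chr4:130792287-130792536 on the plus strand for Sdc3 and chr12:8771146-8771395 on the plus strand for Sdc1.
Gpc4: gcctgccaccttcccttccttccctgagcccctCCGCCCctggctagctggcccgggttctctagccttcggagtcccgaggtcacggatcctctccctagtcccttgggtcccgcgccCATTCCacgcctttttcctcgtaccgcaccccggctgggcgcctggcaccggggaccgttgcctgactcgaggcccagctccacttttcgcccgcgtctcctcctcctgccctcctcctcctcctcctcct
Sdc3: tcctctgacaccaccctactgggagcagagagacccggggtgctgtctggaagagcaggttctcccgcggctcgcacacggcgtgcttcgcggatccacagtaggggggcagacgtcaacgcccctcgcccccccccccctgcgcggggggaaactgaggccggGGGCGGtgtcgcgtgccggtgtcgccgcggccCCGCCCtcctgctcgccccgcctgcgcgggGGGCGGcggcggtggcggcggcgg
Sdc1: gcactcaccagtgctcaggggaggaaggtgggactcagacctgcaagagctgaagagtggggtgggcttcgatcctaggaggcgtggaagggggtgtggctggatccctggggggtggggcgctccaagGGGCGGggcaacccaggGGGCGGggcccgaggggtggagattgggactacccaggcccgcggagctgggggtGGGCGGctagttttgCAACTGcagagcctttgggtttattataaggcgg
The Gpc4 window held 1 MCAT match, from base 131 to base 126 before the start, and no E-box. The Sdc1 window held 1 E-box, from base 34 to base 29 before the start, and the Sdc3 window held neither. A GC box stood in all 7 member windows found, with 1 match in Gpc4 and 3 each in Sdc3 and Sdc1. Of 32851 windows of the same length in the table, 32.7% held a GC box, 66.2% an E-box, 12.6% an MCAT element and 6.75% an AP-1 site (TGANTCA), of which the member windows held none. The GC content was 68.4% for Gpc4, 76.4% for Sdc3 and 66.0% for Sdc1, against a median of 52.4% over all windows. These letter matches do not overlap in the 3 windows and are a description only.

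On fibronectin the glypican Gpc4 was 1.51-fold higher and the syndecan Sdc3 1.42-fold lower than on collagen I, and these were the only members whose calls held under all 15 alternative settings of the gene fit. Sdc1 rose 1.16-fold and Gpc1 fell 1.13-fold, with calls that were lost when single samples were left out. Sdc2, Sdc4, Gpc2 and Gpc6 did not pass, and Gpc3 and Gpc5 were too dim to test. Values are log2 signals of RMA, so a difference of 1 is a 2-fold change, and each gene is represented by its brightest probe set. Genes were tested with limma where the mean signal reached 2.33, the median over all probe sets, and a gene was called at a Benjamini-Hochberg adjusted p under 0.05.

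Of the 8 members tested 4 passed, 2 higher and 2 lower, while 40.1% of all 10941 genes tested passed, 19.9% higher and 20.2% lower. The samples of the coatings did not overlap for the same 4 members, against 53.3% of all genes tested. The share of members that passed is thus near that of all genes. The median log2 change was -0.01 over the 8 members, 0.11 over the 4 syndecans and -0.09 over the 4 glypicans tested, against 0.00 over all genes. With the sample medians set equal, 2973 genes were higher and 1646 lower, in place of 2173 and 2211. All 3 fibronectin medians lay below all 3 collagen medians before that step. Setting them equal moved the median log2 change of all genes tested from 0.00 to 0.06. Levels of different probe sets depend on the probes, so the members are not ranked by level.

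**Figure D1:**
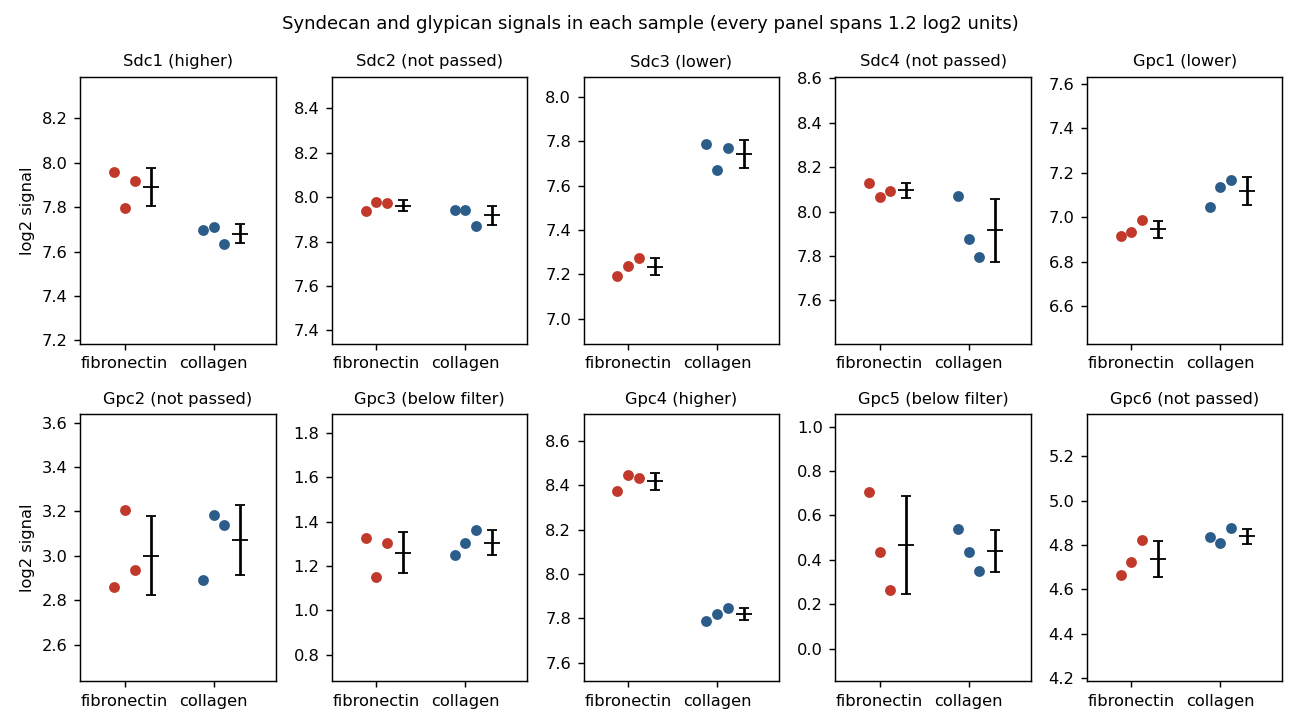
Log2 signal of the brightest probe set of each syndecan and glypican in the 3 fibronectin samples (red) and the 3 collagen samples (blue). Bars are the mean and SD. The coatings are fully apart for Gpc4, Sdc3, Sdc1 and Gpc1.

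Gpc4, a glypican known for carrying Wnt and BMP ligands and for binding growth factors, had log2 signals of 8.37, 8.45 and 8.43 on fibronectin, against 7.79, 7.82 and 7.85 on collagen. All 3 fibronectin samples lay above all 3 collagen samples, and the gap between the groups was wider than the range within either. The log2 change was 0.60 (SE 0.04, 95% interval 0.50 to 0.70, limma adjusted p = 7.33e-05). Its second probe set read 6.23, 6.22 and 6.25 on fibronectin and 5.53, 5.64 and 5.72 on collagen. That probe set gave a log2 change of 0.60 (SE 0.06, adjusted p = 0.000452 in the limma fit of all probe sets), so both probe sets of the gene showed the same change. Over all genes tested, Gpc4 had the 160th highest change of 10941, and 4.97% of the genes changed by at least as much in either direction. Under the alternative settings its log2 change lay between 0.58 and 0.65.

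Gpc1, the glypican that sequesters Fgf2 in myoblasts, had 6.92, 6.93 and 6.99 on fibronectin, against 7.04, 7.14 and 7.17 on collagen. The coatings did not overlap, but the nearest samples of both were only a short way apart. The log2 change was -0.17 (SE 0.05, 95% interval -0.29 to -0.06, limma adjusted p = 0.0274), from a single probe set. The call was lost when fibronectin replicate 1 (adjusted p = 0.0847), fibronectin replicate 2 (0.0797), collagen replicate 2 (0.0821) or collagen replicate 3 (0.0799) was left out. It was also lost with samples centred on their medians, at a log2 change of -0.12 (adjusted p = 0.139), and without the brightness filter (0.0804).

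Gpc6, a glypican that shares a genomic cluster with Gpc5, had 4.66, 4.72 and 4.82 on fibronectin and 4.84, 4.81 and 4.88 on collagen. One fibronectin sample lay inside the collagen range, and the log2 change of -0.10 did not pass (95% interval -0.23 to 0.02, limma adjusted p = 0.163). Its other 3 tested probe sets had log2 changes of -0.15, -0.06 and -0.17, none past the threshold, and 1 more lay below the filter. Gpc2, a glypican of the developing nervous system, had 2.86, 3.20 and 2.94 on fibronectin and 2.89, 3.19 and 3.14 on collagen. The coatings overlapped, with a 95% interval of -0.32 to 0.18 for the log2 change (adjusted p = 0.627).

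Gpc3, an inhibitor of Hedgehog signalling in the embryo, and Gpc5 lay below the filter on both coatings. Gpc3 read 1.32, 1.15 and 1.30 on fibronectin, against 1.25, 1.30 and 1.36 on collagen. Gpc5 read 0.70, 0.44 and 0.27 on fibronectin, against 0.54, 0.44 and 0.35 on collagen. The groups overlapped for both genes, and signals this low are near the floor of the array, where a transcript at low level cannot be told from background.

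Sdc3, the syndecan with the longest ectodomain, had 7.19, 7.24 and 7.27 on fibronectin, against 7.79, 7.67 and 7.77 on collagen. Every fibronectin sample was lower than every collagen sample. The log2 change was -0.51 (SE 0.05, 95% interval -0.62 to -0.39, limma adjusted p = 0.000231), the 536th lowest of 10941. A second probe set read 2.87, 2.81 and 2.92 on fibronectin and 3.08, 3.15 and 3.17 on collagen, a log2 change of -0.26 (adjusted p = 0.00874 in the fit of all probe sets). The third had a log2 change of -0.13, with overlapping samples, and did not pass (adjusted p = 0.217). Both of these read below 4, and with all 3 probe sets averaged the log2 change of Sdc3 was -0.30 (adjusted p = 0.000678).

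Sdc1, a syndecan best known from epithelia and plasma cells, had 7.96, 7.80 and 7.92 on fibronectin, against 7.70, 7.71 and 7.63 on collagen. The groups did not overlap, with fibronectin replicate 2 nearest to the collagen samples. The log2 change was 0.21 (SE 0.06, 95% interval 0.08 to 0.34, limma adjusted p = 0.0196). Its design allows it to bind more than 1 transcript. The other 3 probe sets had log2 changes of 0.17, 0.15 and 0.34, and those at 0.17 and 0.34 passed in the fit of all probe sets (adjusted p of 0.0443 and 0.00725). The call for the gene was lost without fibronectin replicate 1 (adjusted p = 0.0668), without fibronectin replicate 3 (0.0646), without collagen replicate 3 (0.0601) and without the brightness filter (0.0595).

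Sdc4, the syndecan of focal adhesions, had 8.13, 8.06 and 8.09 on fibronectin, against 8.07, 7.88 and 7.80 on collagen. Collagen replicate 1 lay within the fibronectin range and the other two collagen samples lay below it. The log2 change was 0.18 (SE 0.07, 95% interval 0.01 to 0.35) and did not pass (limma adjusted p = 0.0811). Without collagen replicate 1 it was 0.26 and passed (adjusted p = 0.00854). It also passed with samples centred (0.23, adjusted p = 0.0225), with array weights (0.21, 0.0194), with an intensity trend and robust variance (0.0252) and with the filter at the 75th percentile (0.0351). The second Sdc4 probe set read 6.21, 6.20 and 6.14 on fibronectin and 6.16, 6.20 and 6.16 on collagen, a log2 change of 0.01 (95% interval -0.10 to 0.12), and with both averaged the change was 0.10 (adjusted p = 0.149).

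Sdc2, a syndecan of mesenchymal cells, had 7.94, 7.98 and 7.97 on fibronectin, against 7.94, 7.94 and 7.87 on collagen. The samples overlapped and the log2 change of 0.04 did not pass (95% interval -0.06 to 0.15, limma adjusted p = 0.465). Its probe sets differed. One of the 3 tested read 6.86, 6.82 and 6.76 on fibronectin and 6.68, 6.64 and 6.61 on collagen, with no overlap and a log2 change of 0.17 (adjusted p = 0.0351 in the fit of all probe sets). The third had a log2 change of 0.08 (adjusted p = 0.301), and 1 more lay below the filter.

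**Figure D2:**
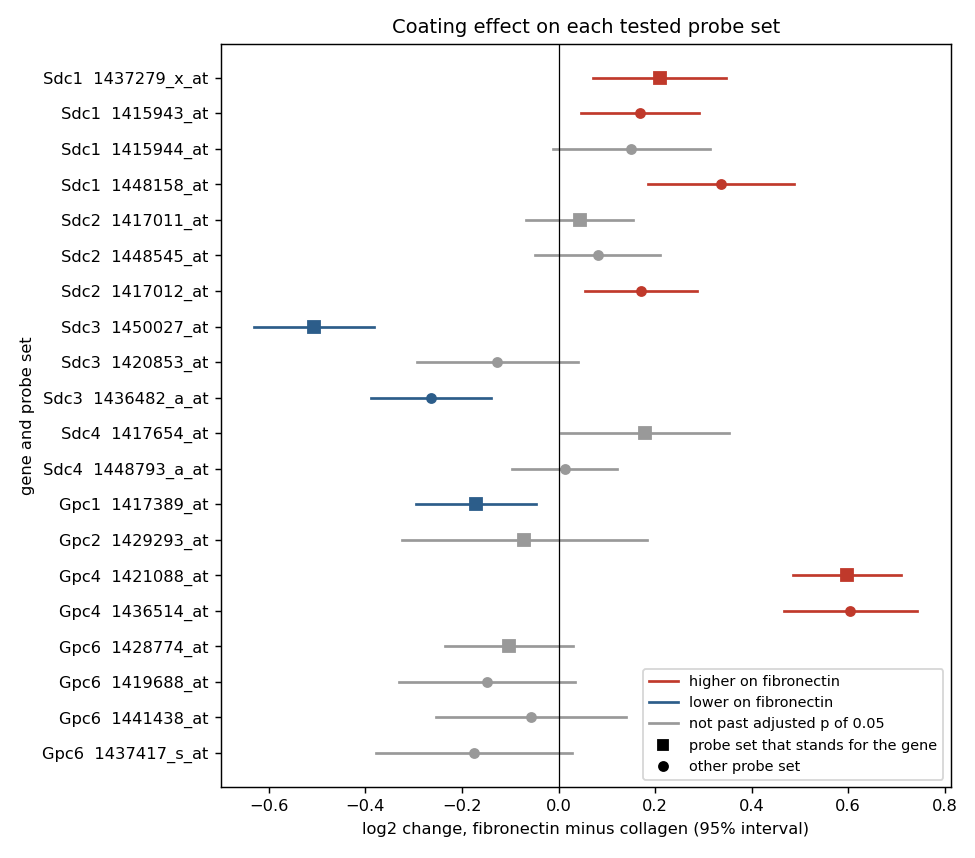
Log2 change, fibronectin minus collagen, of the 20 tested probe sets of syndecans and glypicans, with 95% intervals from the limma fit of all probe sets. Squares stand for the gene in the gene fit. Both Gpc4 probe sets lie near 0.60, the 3 Sdc3 probe sets all lie below 0, and the probe sets of Sdc2 and of Sdc4 differ among themselves.

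Of the 20 member probe sets tested, 6 were higher and 3 lower on fibronectin, while 32% of all 22496 probe sets tested passed, 16.2% higher and 15.8% lower. The higher ones belonged to Gpc4 (2), Sdc1 (3) and Sdc2 (1), and the lower ones to Sdc3 (2) and Gpc1 (1). Probe sets of 1 gene share its transcripts and are not independent.

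**Figure D3:**
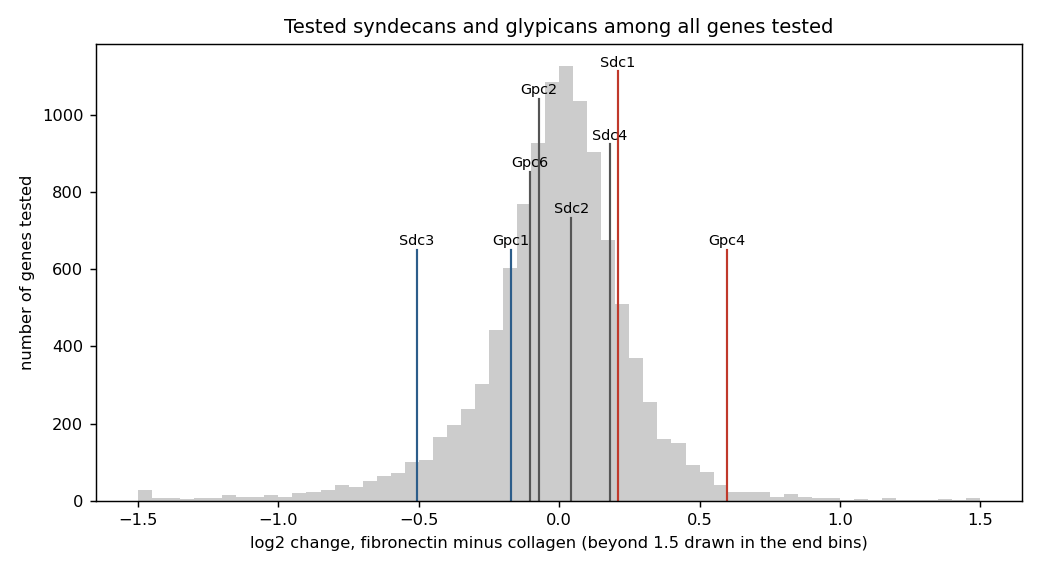
Histogram of log2 changes, fibronectin minus collagen, of the 10941 genes tested, with a line at each of the 8 tested members (red higher, blue lower, grey not past the threshold; line heights have no meaning). Gpc4 at 0.60 and Sdc3 at -0.51 lie in the tails, and the other 6 lie between -0.17 and 0.21.

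The genes whose profile over the 6 samples was most like that of Gpc4 were Zyx, an adhesion protein at the ends of actin bundles, Pkia, an inhibitor of protein kinase A, and Tmem39b. After each gene was centred on its own mean, their root-mean-square differences from Gpc4 were 0.015, 0.029 and 0.033 on the log2 scale. Those most like Sdc3 were Dlg4, a scaffold of synapses, Marchf3, a ubiquitin ligase, and Slc48a1, a heme transporter, each at a difference of 0.027. With 2 groups of 3 samples such likeness rests mainly on the size of the coating effect. It also rests on the brightest probe set of each gene. With probe sets averaged the log2 changes were 0.44 for Zyx, 0.60 for Pkia and 0.65 for Tmem39b. They were -0.25 for Dlg4, -0.17 for Marchf3, which then lay below the filter, and -0.51 for Slc48a1.

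Around the core proteins, 9 lists of genes that build, change, degrade, shed or bind heparan sulfate proteoglycans, together with other proteoglycans and the integrins of the 2 coatings, held 166 genes, of which 158 had a probe set and 105 were tested. Of these 15 were higher and 28 lower on fibronectin, or 41% against 40.1% of all genes. The median log2 change was -0.01. The 28 lower genes included Srgn, of the other proteoglycans, which averaged 2.14 on fibronectin and 2.57 on collagen (log2 change -0.42). Its fibronectin mean lay below the filter, so Srgn was tested only through its collagen samples. Without collagen replicate 2 or collagen replicate 3 it was below the filter and not tested.

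Of 13 tested enzymes that build the chains 3 fell and 0 rose, and the median of their log2 changes was 0.03. With sample medians set equal, 3 fell and 3 rose. Ext1, a subunit of the polymerase that elongates heparan sulfate, averaged 7.36 ± 0.02 on fibronectin and 7.65 ± 0.07 on collagen (SD, n = 3 each), a log2 change of -0.29 (limma adjusted p = 0.00313). Its partner Ext2 had a log2 change of -0.05 and did not pass. B3gat3 and B3galt6, enzymes of the linker that joins chain and core protein, had log2 changes of -0.21 each, and neither passed with probe sets averaged (-0.15 and -0.09).

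Enzymes that set the sulfation pattern moved both ways, with 3 of 8 tested members higher and 1 lower and a median log2 change of 0.04. Hs6st2, a 6-O-sulfotransferase, averaged 6.77 ± 0.07 on fibronectin and 5.95 ± 0.12 on collagen, a 1.77-fold rise (SD, n = 3 each, log2 change 0.82, limma adjusted p = 0.000132), or a log2 change of 0.53 with probe sets averaged. Glce, the epimerase that makes iduronic acid, averaged 6.92 ± 0.06 on fibronectin and 6.56 ± 0.09 on collagen, or 1.28-fold higher, and its log2 change of 0.36 was 0.20 with probe sets averaged. The extracellular 6-O-sulfatases Sulf2 and Sulf1, which remove sulfate from chains at the cell surface, went in opposite directions. Sulf2 averaged 9.62 ± 0.05 on fibronectin and 9.23 ± 0.05 on collagen (log2 change 0.39), and Sulf1 averaged 5.25 ± 0.13 on fibronectin and 5.66 ± 0.08 on collagen (log2 change -0.41). Without probe sets that can bind several transcripts Sulf2 had a log2 change of 0.07 (adjusted p = 0.38), and with probe sets averaged Sulf1 had -0.24 (adjusted p = 0.0806).

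All 6 tested lysosomal enzymes that degrade heparan sulfate fell, with a median log2 change of -0.47, and 4 did so with probe sets averaged. Hgsnat, an acetyltransferase of the lysosomal membrane, averaged 6.90 ± 0.04 on fibronectin and 7.95 ± 0.07 on collagen, a 2.06-fold fall (limma adjusted p = 1.67e-05). Gusb, the beta-glucuronidase, averaged 8.05 ± 0.06 on fibronectin and 8.73 ± 0.01 on collagen, or 1.6-fold lower. Naglu, the alpha-N-acetylglucosaminidase, fell 1.55-fold, and the sulfatase Ids fell 1.19-fold, with a log2 change of -0.08 and no call when its probe sets were averaged (adjusted p = 0.269). The heparanases Hpse and Hpse2 and the sulfatase Arsg lay below the filter. A fall of lysosomal genes was already known from an earlier analysis of these samples, so these values are no independent evidence of it.

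Of 11 tested genes that shed core proteins or restrain such enzymes, 1 rose and 4 fell, and the median of their log2 changes was -0.13. Mmp14, a membrane metalloproteinase that cleaves Sdc1, averaged 7.74 ± 0.04 on fibronectin and 8.04 ± 0.05 on collagen (log2 change -0.30, limma adjusted p = 0.00202). The metalloproteinases Adamts4 and Mmp16 had log2 changes of -0.54 and -0.15, and Mmp16 kept its call under 7 of 15 alternative settings. The 2 called inhibitors went opposite ways. Timp2 had a log2 change of -0.83, with 9.61 ± 0.11 on fibronectin and 10.45 ± 0.06 on collagen. Timp1, the 1 gene that rose, had 0.15 (limma adjusted p = 0.0328). The higher count was 0 without the brightness filter, with the replicate block and at an adjusted p of 0.01. Adam10 and Adam17, sheddases of syndecans, missed the threshold at log2 changes of 0.02 and -0.06, and Notum, a Wnt deacylase that binds glypicans, lay below the filter.

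Partners of the syndecan tails had 0 of 23 tested members higher and 4 lower, with a median log2 change of 0.00. The tally of higher and lower genes was 2 and 2 with probe sets averaged, 1 and 2 with sample medians set equal, and 0 and 0 at an adjusted p of 0.01. The lower count was 8 without collagen replicate 1, and 2 without fibronectin replicate 1, fibronectin replicate 2 or collagen replicate 3. Synpo, an actin-associated protein, averaged 2.98 ± 0.14 on fibronectin and 3.44 ± 0.22 on collagen (log2 change -0.45, limma adjusted p = 0.015), and lay below the filter with probe sets averaged. Msn, which encodes moesin, a linker of membrane and actin, had a log2 change of -0.18, and Cttn, which encodes cortactin, had -0.16, or 0.10 below the filter without probe sets that can bind several transcripts. With probe sets averaged neither passed, at -0.09 for Msn (limma adjusted p = 0.158) and -0.11 for Cttn (0.0666). Msn kept its call under 9 and Cttn under 6 of 15 alternative settings. Gipc1, a PDZ protein that binds Sdc4, had a log2 change of -0.20 (limma adjusted p = 0.015), which did not pass without fibronectin replicate 1 (adjusted p = 0.052). Sdcbp, which encodes syntenin, had -0.02, Cask 0.08 and Prkca, the kinase that Sdc4 activates, -0.19, none past the threshold.

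Ligands and receptors that use heparan sulfate had 7 of 26 tested members higher and 7 lower, with a median log2 change of 0.02. The chemokine receptor Cxcr4 averaged 5.78 ± 0.21 on fibronectin and 6.96 ± 0.14 on collagen (log2 change -1.19, limma adjusted p = 0.000189). Fgfr1, a receptor for Fgf2, averaged 6.48 ± 0.13 on fibronectin and 6.94 ± 0.04 on collagen (log2 change -0.45). Igf2 averaged 7.35 ± 0.12 on fibronectin and 8.07 ± 0.05 on collagen, a log2 change of -0.72 that was -0.25 with probe sets averaged. Ptch1, the Hedgehog receptor, had a log2 change of 0.38, and 0.12 with probe sets averaged, where it did not pass (adjusted p = 0.0975).

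**Figure D4:**
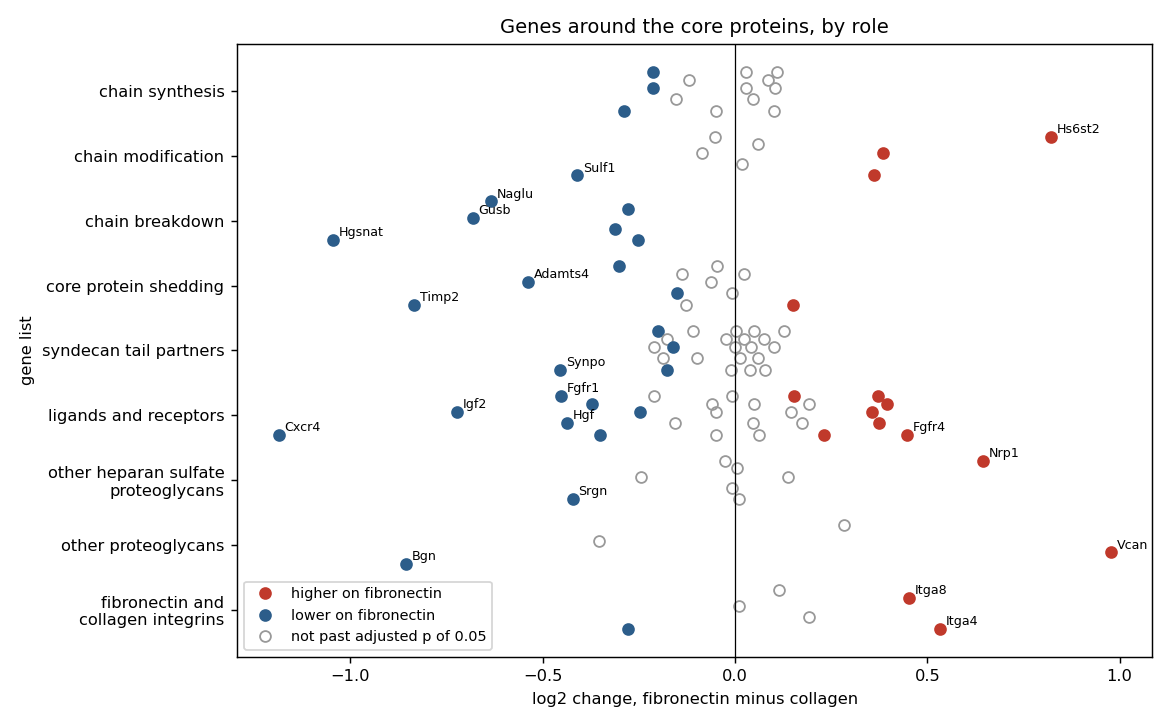
Log2 change, fibronectin minus collagen, of each tested gene in 9 lists around the core proteins, 1 point per gene (red higher, blue lower, open not past the threshold). All 6 tested genes of chain breakdown lie below 0, and the other lists spread around 0. Called genes with a change of at least 0.4 in either direction are named.

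Other proteoglycans also moved both ways. Nrp1, a receptor that can carry heparan sulfate, averaged 6.06 ± 0.11 on fibronectin and 5.41 ± 0.14 on collagen (log2 change 0.64) on its brightest probe set. Its second brightest averaged 5.86 on fibronectin and 5.53 on collagen, a log2 change of 0.33 (adjusted p = 0.015 in the fit of all probe sets). Without fibronectin replicate 1 or 3 the second stood for the gene, at log2 changes of 0.40 and 0.29, while the first had 0.69 and 0.59 over the same samples. Vcan, a matrix proteoglycan with chondroitin sulfate, averaged 7.32 ± 0.05 on fibronectin and 6.34 ± 0.12 on collagen, 1.97-fold higher, with a log2 change of 0.31 and a mean below the filter when its probe sets were averaged. Bgn, a small leucine-rich proteoglycan, fell 1.81-fold, at 5.75 ± 0.14 on fibronectin and 6.61 ± 0.06 on collagen. The basement membrane proteoglycans Hspg2, Agrn and Col18a1 missed the threshold, at log2 changes of 0.14, 0.01 and -0.01.

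Integrin subunits are the other receptors for the 2 coatings, and of 6 tested 2 rose and 1 fell, or 4 and 1 with sample medians set equal. Itga4, which binds fibronectin, rose 1.45-fold in the gene fit, with 3.13 ± 0.08 on fibronectin and 2.60 ± 0.11 on collagen, but averaged over its probe sets it lay below the filter. Itga8 averaged 2.66 ± 0.13 on fibronectin and 2.21 ± 0.28 on collagen (log2 change 0.45, limma adjusted p = 0.0299), and was also below the filter when averaged. The collagen mean of Itga8 lay below the filter of 2.33, so the gene was tested only through its fibronectin samples. Itgb5, a partner of Itgav, averaged 4.83 ± 0.07 on fibronectin and 5.11 ± 0.14 on collagen (log2 change -0.28, adjusted p = 0.0205). Neither Itga8 nor Itgb5 passed without fibronectin replicate 3 (adjusted p of 0.0971 and 0.0708), and Itga8 did not pass without fibronectin replicate 1 (0.0522). Without the brightness filter both missed the threshold (limma adjusted p of 0.0724 for Itga8 and 0.057 for Itgb5). The threshold was missed by Itga5 (log2 change 0.19), Itgav (0.11) and Itgb1 (0.01). Itga5 passed without fibronectin replicate 3 (0.27, adjusted p = 0.0187), and with the opposite sign when probe sets that can bind several transcripts were left out (-0.20, adjusted p = 0.0394). Itga1, Itga2, Itga10 and Itgb3 lay below the filter, and Itga11 had no probe set. The listed collagen-binding alpha subunits (Itga1, Itga2, Itga10 and Itga11) were thus not among the 6 tested.

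All 8 myoblast markers measured were above the filter, and their summed linear signal was 3127 to 3277 on fibronectin and 3167 to 3279 on collagen. Myod1 made up 32.6 to 34.2% of these sums. Of the 8, 2 were called higher, Vcam1 (log2 change 0.31) and Cdh15 (0.24), and 2 lower, Des (-0.23) and Ncam1 (-0.16). Des kept its call under 10 and Ncam1 under 5 of 15 alternative settings. Markers of differentiation fell in all 11 tested cases, with a summed signal of 354.6 to 415.1 on fibronectin and 726.6 to 768.8 on collagen. Markers of dividing cells were higher for 5 of 7 genes and lower for none, and summed to 5330 to 5353 on fibronectin and 4462 to 4606 on collagen. Among other cell types, all 7 endothelial markers lay below the filter, and so did 6 of 9 fibroblast, 4 of 7 macrophage, 2 of 4 Schwann cell and 4 of 6 pericyte markers, including Pdgfra, Dcn, Ptprc, Adgre1 and Myh11. Those called lower on fibronectin were Rgs5 of pericytes (7.84 ± 0.32 on fibronectin, 9.07 ± 0.07 on collagen, log2 change -1.24), Ngfr of Schwann cells (-1.38), Cd68 and Cd14 of macrophages (-1.28 and -0.46) and Thy1 of fibroblasts (-0.32). The tested markers Sox10 of Schwann cells (0.05), Csf1r of macrophages (-0.03) and Cspg4 of pericytes (-0.35) did not pass. With probe sets averaged Ngfr lay below the filter, at a log2 change of -0.61. Thy1 kept its call under only 4 of 15 alternative settings. Those of other cell types called higher were Cd34 (0.58) and Col3a1 (0.21), both of the fibroblast list. Cd34 averaged 2.79 on fibronectin and 2.20 on collagen, so its collagen mean lay below the filter of 2.33 and it was tested only through its fibronectin samples. Summed signals were 743.1 to 798.9 on fibronectin and 630.1 to 692.6 on collagen for fibroblast markers, and 195.3 to 278.2 on fibronectin and 531.2 to 574.7 on collagen for pericyte markers. Col3a1 made up 96.1 to 96.7% of the fibroblast sums, which without it were 25.4 to 31.3 on fibronectin and 24.6 to 26.9 on collagen. Rgs5 made up 90.5 to 96.8% of the pericyte sums, which without it were 16.9 to 19.6 on fibronectin and 18.3 to 22.0 on collagen. Col3a1 had a log2 change of 0.02 (adjusted p = 0.739) without probe sets that can bind several transcripts. The sums were 38.8 to 44.5 on fibronectin and 55.8 to 64.0 on collagen for macrophage markers, and 23.4 to 27.3 on fibronectin and 38.9 to 42.6 on collagen for Schwann cell markers. Without Ngfr the Schwann cell sums were 15.6 to 16.2 on fibronectin and 14.3 to 16.3 on collagen, and without Cd68 the macrophage sums were 30.1 to 32.0 on fibronectin and 34.2 to 36.7 on collagen. The endothelial sum was 14.7 to 16.4 on fibronectin and 14.3 to 16.9 on collagen. The differentiation and cell cycle markers, and the other lists whose sums differed, moved with the same coating contrast as Gpc4 and Sdc3, and their part in the results was not tested. In bulk samples fewer cells of a type and less RNA per cell cannot be told apart.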

How the data were processed

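Total RNA from 6 samples was labelled with biotin and hybridised to an Affymetrix mouse array. The deposited values are log2 signals that the authors made, per the submitters' processing notes, with Affymetrix Expression Console and RMA, which normalises across arrays and would remove a change shared by most genes. The labels give no versions, settings, scan dates or genome build, and batches were not tested. Sample medians lay between 2.30 and 2.39, at 2.34, 2.30 and 2.30 on fibronectin and 2.39, 2.35 and 2.36 on collagen. The number of arrays limits the precision (median SE of a log2 change 0.06).

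Groups came from the sample titles. Of 45101 probe sets 64 were controls, 34945 had 1 gene, 932 several and 9160 none listed. Names came from the platform annotation, updated through a RefSeq table (GRCm38.p6). Each gene took its brightest probe set by mean, and 10941 of 18193 genes reached the median of 2.33. The fit used limma 3.58.1 in R 4.3.3 (lmFit, eBayes, two-sided, fibronectin minus collagen, no covariates), adjusted over all genes tested, and likewise over all 22496 probe sets tested. With 3 samples against 3 an exact permutation test cannot go below 0.1. The procedure was tested on simulated data with independent noise and few changed genes, unlike these samples, where 40.1% of genes passed. That run does not bear on what the spread among the samples stands for. Members, lists and tests were chosen with earlier results of these data known. Genes named by rule were drawn from the 10 members, integrins and markers below the filter, and the 3 nearest profiles of Gpc4 and of Sdc3. The rule also covered up to 4 genes per list by smallest p among those called. Not every gene that met the rule is named, and the called markers of differentiation and of dividing cells are given as counts and sums only. Timp1 and other list genes that did not pass were named after their values were seen. Promoter sequences and motif matches were read with Python 3.11.15 and pandas 2.3.3, and figures drawn with matplotlib 3.10.9. Alternatives covered filter, scaling, probe set choice, variance model, array weights, replicate block, stricter threshold and leaving out each sample.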

Additional observations from a re-analysis of the deposited data

How the results depend on the processing

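Gpc4 and Sdc3 kept their direction and their call under all 15 alternatives of the gene fit, with log2 changes of 0.58 to 0.65 for Gpc4 and -0.54 to -0.30 for Sdc3. Sdc1 kept its call under 11 and Gpc1 under 9 of 15, and Sdc4 gained one under 5. Sdc2, Gpc2 and Gpc6 passed under none of those in which they were tested. The 2 members higher on fibronectin became 1 without the brightness filter, 1 at an adjusted p of 0.01 and 1 to 3 when single samples were left out. They were 3 with the filter at the 75th percentile, samples centred, an intensity trend or array weights. The 2 members lower on fibronectin became 1 without the filter, 1 with samples centred, 1 at an adjusted p of 0.01 and 1 to 2 when single samples were left out. The 6 member probe sets that were higher became 3 without the filter, 3 at the stricter threshold and 3 to 6 when single samples were left out, and the 3 that were lower became 2 to 3. At the stricter threshold 1171 genes were higher and 1398 lower, and 9 genes of the pathway lists were higher in place of 15.

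Same-numbered samples of the coatings deviated from their group means with correlations of 0.10, -0.01 and 0.08 over genes. For samples of unlike number the correlations lay between -0.14 and 0.10. Deviations cancel out within a coating, so these correlations cannot decide whether the numbers mark pairs. The labels name no pairs, and the numbers were not taken as such. With the replicate number as a block, 2 members were higher and 2 lower in the gene fit, and 3 member probe sets were higher in place of 6.

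Without probe sets that can bind several transcripts, Itga5 had a log2 change of -0.20 (adjusted p = 0.0394) in place of 0.19, Ncam1, a myoblast marker, had 0.034 (adjusted p = 0.748) in place of -0.16, and Cttn, a tail partner, had 0.10 below the filter in place of -0.16, each turned in sign. With probe sets averaged, the chain modification list had 0 lower in place of 1, and the ligand and receptor list 4 lower in place of 7. The cause of these shifts was not tested. In the settings that change filter or samples, a lower filter admits more genes to the adjustment and leaving out a sample leaves fewer samples. Dim members, Gpc3 and Gpc5 above all, are limited by signals near the floor of the array.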
